A study of Homo sapiens with 4 samples.

Results

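AP-1 is a family of dimeric transcription factors that share a basic leucine zipper, and 10 of their genes are described here by the H3K27ac-associated loops at their transcript starts. They were JUN, JUNB, JUND, FOS, FOSB, FOSL1, FOSL2, ATF3, BATF3 and MAFF, out of 19229 protein-coding genes annotated on chromosomes 1 to 22. A loop was counted for a gene when any annotated transcript start of that gene lay inside 1 of its 5 kb anchors, and the rule itself used no measured value. By this rule 30 of the 27289 loops in the WT list and 33 of the 25621 loops in the STAG2-KD list were found.

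The loops came from H3K27ac HiChIP in M14, a human melanoma cell line carrying a doxycycline-inducible shRNA against STAG2. STAG2 is a subunit of cohesin, the ring complex that extrudes and holds chromatin loops, and H3K27ac is a histone mark of active promoters and enhancers. Cells without doxycycline were the WT group and cells that received it for 5 days were the STAG2-KD group, so that both groups carried the hairpin construct. The labels listed 2 samples per group, and 1 loop list per group was analysed. The lists hold anchor positions alone, the depth behind a loop is unknown, and no difference between them had a replicate check. No p-value was computed, and the exact binomial 95% intervals given below cover the counting of loops, which share anchors and are not independent. Among melanocyte lineage genes, 6 of 7 had a loop at a start in the WT list and 5 of 7 in the STAG2-KD list, and their loops numbered 26 and 16. Over all protein-coding genes 39.1% and 36.8% had a loop. MITF, the lineage's master regulator, had 7 WT loops and 2 STAG2-KD loops, PMEL had 7 and 4, DCT 3 and 0, TYRP1 2 and 1, MLANA 3 and 5, and SOX10 4 in each, while TYR had 0 in both. Of these genes, 4 had 4 or more loops over both lists. At least 1.5 times as many stood in WT for 2 and in STAG2-KD for 1, beside 29.2% and 23.1% of all genes with so many loops. With 4 genes, nothing particular to the lineage can be read from this. The part of the 26 against 16 difference in the results below was not tested. Of the genes of other cell types looked up beside them, KRT5 and PTPRC had 0 loops in both lists, KRT14 had 2 in each, and CD3E had 1 in WT and 3 in STAG2-KD.

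AP-1 dimers join a JUN protein to another JUN protein, to a FOS protein or to an ATF or MAF relative, and bind short palindromic sites in promoters and enhancers. FOS, FOSB, JUNB and ATF3 are classic immediate early genes that mitogens and stress switch on within minutes. JUN and FOSL1 (FRA-1) are known in melanoma for their high activity in dedifferentiated, invasive and BRAF inhibitor-tolerant cells. JUN itself is induced by JNK through an AP-1-like site in its own promoter.

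That kind of site was looked up in the members' promoters, as background to the loops. RefSeq promoter windows were found for 8 of the 10 genes, 10 windows in all, each covering the 250 bases before a start. No window was in the table for FOSL1 or BATF3, nor for the canonical ATF3 start at 212782103, whose bin carried the only ATF3 loop. Both ATF3 windows belong to other starts, in bins from 212735001 and 212785001 that carried 0 loops in both lists. The pattern TGANTCA, looser than the AP-1 consensus TGA(C/G)TCA, was in 0 of the 10 windows, against 6.57% of all 35116 windows. The CRE site TGACGTCA, which ATF and CREB dimers and JUN-ATF dimers bind, was in 2 windows, those of JUND and MAFF, against 1.65% of all windows. The looser form TGACNTCA, which includes the CRE site and was chosen after the windows had been read, was in 4 windows against 6.87%. The CArG box of serum response factor, also added later, was in 0 of the 10 windows against 1.16%. Sites farther than 250 bases before a start lie outside the windows. Of the 14 bins of 5 kb that hold the members' starts, 4 held a CArG box (28.6%), against 23.7% of bins with a protein-coding start. All motifs were searched on both strands, and these shares are descriptions of so few windows and bins without a test.

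The 4 windows with a TGACNTCA match are shown from 5′ to 3′ on the strand of the gene, with the match in capitals. The match began 67 bases before the start of JUN, 200 before JUND, 123 before the ATF3 start at 212738749 and 54 before the MAFF start at 38598001. The windows of JUN and ATF3 end where an annotated transcript begins. The MAFF match lies in an annotated UTR of a MAFF transcript, and 30 bases around it are given. Sequences are from the RefSeq table (GRCh38.p14), and the hg19 positions were found by exact match.
JUN, chr1:59249721-59249969, minus strand: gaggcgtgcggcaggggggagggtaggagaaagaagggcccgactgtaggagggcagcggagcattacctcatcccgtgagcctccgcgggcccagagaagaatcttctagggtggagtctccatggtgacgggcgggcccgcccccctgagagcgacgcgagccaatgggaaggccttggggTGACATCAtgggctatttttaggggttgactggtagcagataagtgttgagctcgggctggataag
JUND, chr19:18392433-18392682, minus strand: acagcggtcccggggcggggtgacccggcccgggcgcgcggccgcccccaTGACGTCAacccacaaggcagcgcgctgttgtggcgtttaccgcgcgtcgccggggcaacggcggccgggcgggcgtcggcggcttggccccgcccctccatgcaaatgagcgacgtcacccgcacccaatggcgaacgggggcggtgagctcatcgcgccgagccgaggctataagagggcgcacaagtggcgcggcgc
ATF3, chr1:212738499-212738675, plus strand: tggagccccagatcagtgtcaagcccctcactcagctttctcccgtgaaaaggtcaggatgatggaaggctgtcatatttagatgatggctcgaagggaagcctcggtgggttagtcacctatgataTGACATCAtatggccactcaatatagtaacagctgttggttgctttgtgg
MAFF, chr22:38597936-38597965, plus strand: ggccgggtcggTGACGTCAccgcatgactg

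At the level of single genes, loops gathered at 6 of the 10 members. MAFF and FOSL1 had the most loops in STAG2-KD, 8 each, against 5 and 6 in WT. JUND had 6 in each list. JUN had 5 in WT and 3 in STAG2-KD, FOSL2 had 4 and 5, and JUNB had 2 and 3. FOSB and ATF3 had 1 loop each in WT and 0 in STAG2-KD, and FOS and BATF3 had 0 in both lists. In all, 4 members had more loops in STAG2-KD, 3 had more in WT and 3 had the same number, and 1 list per group gives no error for any of these differences.

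**Figure D1:**
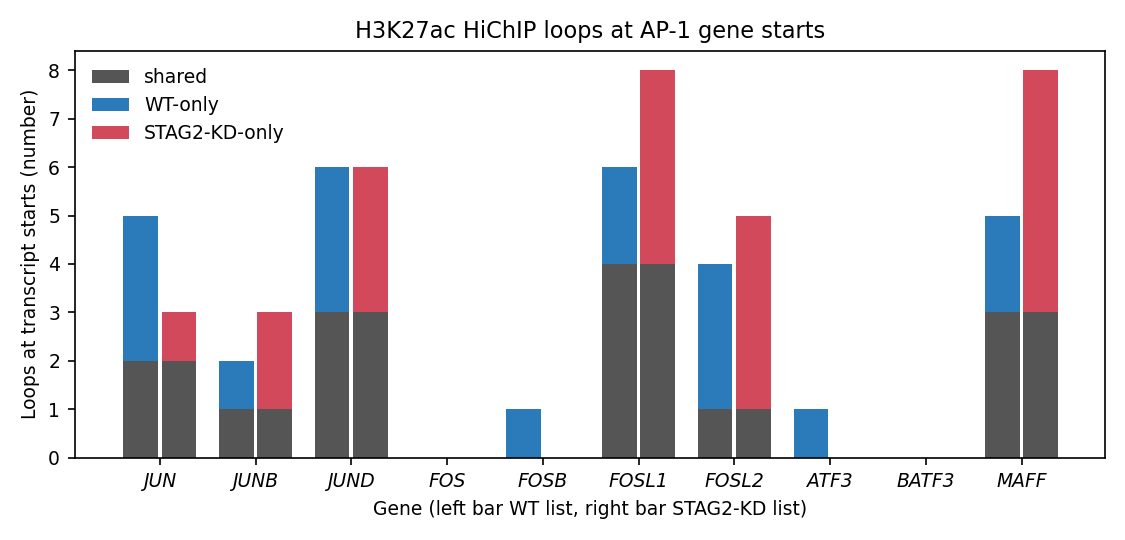
The bars give the number of loops with a transcript start of each gene in an anchor, in the WT list (left bar) and the STAG2-KD list (right bar), split into loops with the same anchors in both lists (shared, grey), WT-only loops (blue) and STAG2-KD-only loops (red). FOSL1 and MAFF reach 8 loops in STAG2-KD, and FOS and BATF3 have 0 in both lists.

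Set beside all protein-coding genes, 8 of 10 members had at least 1 loop in WT, where 39.1% of all genes did, and 6 of 10 had one in STAG2-KD, where 36.8% did. No member had 10 or more loops in a list, a level reached by 1.65% of genes in WT and 1.62% in STAG2-KD. Genes with any loop had a median of 2 loops in either list. Of the 6 members with 4 or more loops over both lists, JUNB and MAFF had at least 1.5 times as many in STAG2-KD, a difference that 23.1% of the 4338 genes with so many loops showed. JUN had at least 1.5 times as many in WT, as did 29.2% of those genes. Both 1.5-fold counts, 2 of 6 and 1 of 6, were near those background shares.

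**Figure D2:**
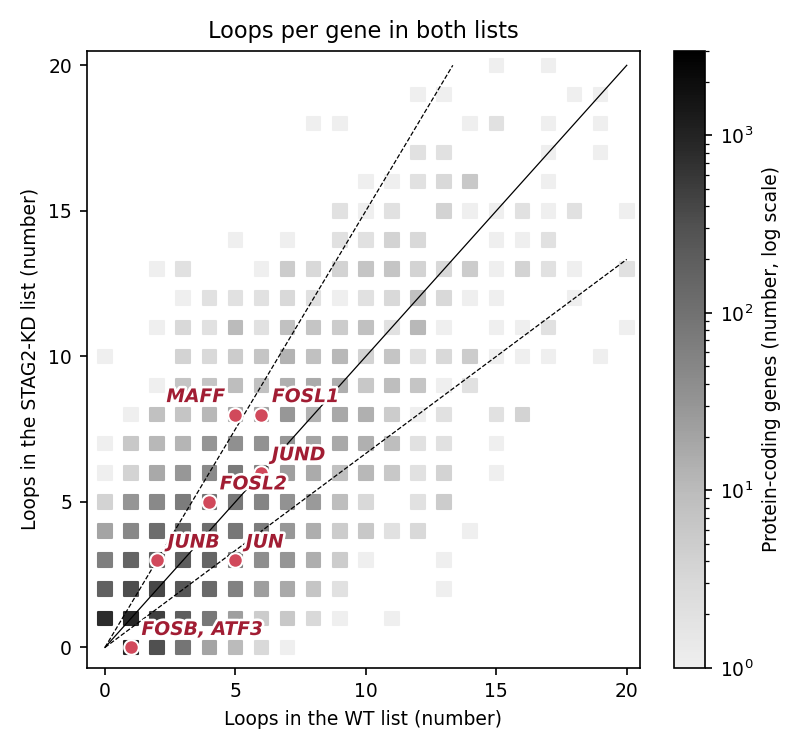
Each grey square gives how many protein-coding genes had that number of loops in the WT list (horizontal axis) and the STAG2-KD list (vertical axis), with darker squares for more genes on a log scale. Red points are the AP-1 genes with a loop. The solid line marks equal numbers and the dashed lines a 1.5-fold difference. JUN lies below the lower dashed line, JUNB lies on the upper one and MAFF just above it, and 20 genes with more than 20 loops in a list are not drawn, nor are genes without a loop.

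Summed over the members, 14 loops had the same anchors in both lists. Another 16 loops stood in the WT list alone (WT-only) and 19 in the STAG2-KD list alone (STAG2-KD-only). Shared loops made up 46.7% of the WT loops (95% interval 28.3 to 65.7) and 42.4% of the STAG2-KD loops (25.5 to 60.8). For all loops with a protein-coding start in an anchor the shares were 41.2% and 43.4%, inside both intervals. STAG2-KD-only loops were 54.3% of the private loops at the members (36.6 to 71.2), against 47.7% for all loops with a protein-coding start. No difference between the AP-1 genes and other promoters was detectable in these shares.

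The members' loops spanned 20 to 970 kb between anchor midpoints. WT loops had a median of 97.5 kb and STAG2-KD loops one of 85 kb, beside 90 and 85 kb for all loops with a protein-coding start. Shared loops were the shortest, with a median of 57.5 kb and a maximum of 440 kb, and over all loops with a protein-coding start the shared ones, at a median of 75 kb, were the shortest too. WT-only loops had a median of 188 kb and STAG2-KD-only loops one of 115 kb, beside 100 kb for each private set over all loops with a protein-coding start. Loops of 500 kb or more made up 4 of 16 WT-only loops (25%, 7.27 to 52.4) and 4 of 19 STAG2-KD-only loops (21.1%, 6.05 to 45.6). Over all loops with a protein-coding start they made up 3.53% and 5.43% of these sets. All 8 long loops belonged to JUN and FOSL2, so that these shares describe those loci and not the family.

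**Figure D3:**
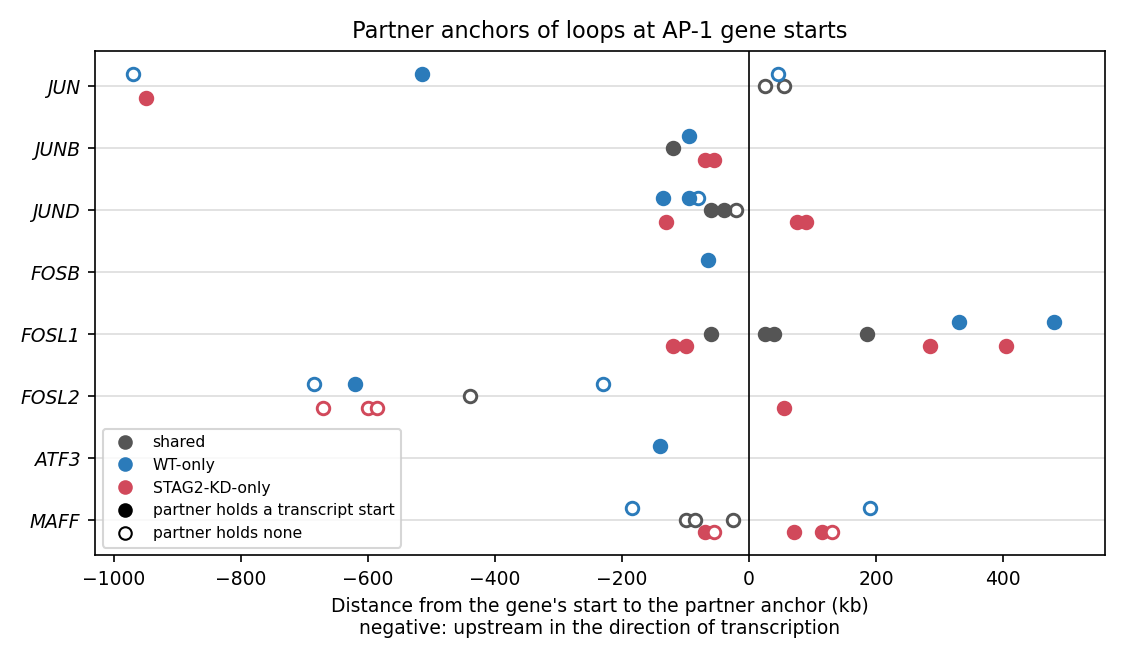
Each point is the partner anchor of a loop at a start of the gene on its row, placed by the distance between anchor midpoints in kb, with negative values upstream in the direction of transcription. Grey points are shared, blue points WT-only and red points STAG2-KD-only loops, and filled points are partners with a transcript start of any gene. FOSL2 partners lie up to 685 kb upstream, JUN reaches 970 kb upstream, and the partners of JUNB, JUND and MAFF lie within 190 kb.

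JUN, the founding member of the family, (ENSG00000177606) occupies chr1:59242517-59249720 of hg19 on the minus strand, and its starts share the bin that runs from 59245001 to 59250000. The shared loops ran 25 kb and 55 kb downstream, to the bins from 59220001 and from 59190001. Both bins lay between protein-coding genes and held no transcript start, and both were busy anchors in each list. The nearer one had 10 WT loops and 9 STAG2-KD loops, and the farther one 11 in each. WT alone had a further loop, 45 kb long, to a bin at 59200001 in the same stretch between JUN and MYSM1.

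The other JUN loops ran upstream and were private. A WT-only loop of 515 kb reached the bin from 59760001, with the start of FGGY, which encodes a carbohydrate kinase. A WT-only loop of 970 kb ended in an intron of FGGY in the bin from 60215001. The STAG2-KD list had no loop to either bin, but held 1 of 950 kb to the bin from 60195001, also in an FGGY intron, with the start of the microRNA gene MIR4711. The 950 and 970 kb partners lie 20 kb apart. Every JUN partner bin was an anchor in both lists, and the bin at the FGGY start had 8 WT loops and 13 STAG2-KD loops.

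JUNB, a JUN protein that often restrains JUN activity, (ENSG00000171223) is a single-exon gene at chr19:12902300-12904129, plus strand. All of its loops ran upstream, over 55 to 120 kb, and all ended at promoters. Its shared partner was 120 kb away, in a bin at 12780001 with starts of WDR83, WDR83OS and the protein-coding gene ENSG00000269590. The WT-only loop ran 95 kb to FBXW9, an F-box protein gene. The STAG2-KD-only loops ran 70 kb to TNPO2, a nuclear import receptor gene, and 55 kb to GET3 and TRIR. Each of these 4 partner bins was an anchor in both lists.

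JUND, the most constitutively expressed JUN gene, (ENSG00000130522) occupies chr19:18390504-18392432, minus strand. Its 3 shared loops ran 20, 40 and 60 kb upstream. They ended in a bin between protein-coding genes, at the start of LSM4, a splicing factor gene, and at the start of PGPEP1. The WT-only loops ran farther in the same direction. They ended 80 kb away in exons of PGPEP1, 95 kb away at GDF15, the gene of a stress-induced cytokine, and 135 kb away at SSBP4. The STAG2-KD-only loops ran 130 kb upstream to a bin next to that of SSBP4, and 75 and 90 kb downstream, the latter to the start of MPV17L2.

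Some JUND partners were anchors in only 1 of the lists. The GDF15 bin at 18485001 had 3 WT loops and 0 STAG2-KD loops, the PGPEP1 exon bin at 18470001 had 1 and 0, and the bin at 18520001 had 0 and 1. Among loops that joined one JUND partner to another, the WT list held 7 and the STAG2-KD list 3, all 3 of them shared. For such counts the partners of a gene were pooled from both lists. A partner bin that was an anchor in only 1 list could add loops there alone. The difference in these counts thus follows in part from the choice of bins. No partner lay downstream of JUND in WT.

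FOS, the gene of the prototype FOS protein, (ENSG00000170345) occupies chr14:75745529-75748933, plus strand, and its 10 transcript starts all fell in the bin from 75745001 to 75750000. That bin was an anchor in neither list. The canonical start at 75745531 lies 530 bases from the left edge of the bin, and sequence farther upstream is in the bin before it. That neighbouring bin, 75740001 to 75745000, had 5 WT loops and 3 STAG2-KD loops. Of these, 2 were shared and ran 125 kb upstream and 20 kb downstream of the bin. The 3 WT-only loops ran 90, 110 and 140 kb upstream, and the STAG2-KD-only loop ran 20 kb upstream. The count of 0 at FOS is thus a count for 1 bin, and FOS had more loops in WT when the neighbouring bin was included.

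FOSB, another immediate early FOS gene, (ENSG00000125740) occupies chr19:45971253-45978437, plus strand. Its only loop was WT-only and ran 65 kb upstream to the bin from 45905001, with starts of POLR1G, an RNA polymerase I subunit gene, and PPP1R13L, which encodes the p53 inhibitor iASPP. The STAG2-KD list held no loop at the FOSB start. It did hold a shared loop from the bin from 45980001, 10 kb beyond the start bin, to the same PPP1R13L bin. Within 10 kb of the FOSB start bin, without counting the bin itself, WT had 4 loops and STAG2-KD had 6, of which 4 were shared.

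FOSL1, which encodes FRA-1, (ENSG00000175592) occupies chr11:65659520-65668044, minus strand. It had the most shared loops of any member, 4. They ran 25 kb to EFEMP2, an extracellular matrix protein gene, 40 kb to CFL1 (cofilin) and MUS81 (a DNA repair endonuclease), 60 kb to SART1, a splicing factor gene, and 185 kb to KAT5, an acetyltransferase gene. All 10 partners of FOSL1 held a transcript start of some gene, and 8 held a protein-coding one.

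The WT-only loops of FOSL1 both ran downstream, 330 kb to FAM89B and ZNRD2 and 480 kb to the bin from 65185001. The STAG2-KD-only loops ran 285 kb downstream to MAP3K11 and PCNX3, 405 kb downstream to the bin from 65260001, and 100 and 120 kb upstream to BANF1 with EIF1AD and to CATSPER1. MAP3K11 encodes a kinase that activates the JNK pathway, which phosphorylates JUN. Each of the FOSL1 partner bins carried loops in both lists, and each list held 11 loops between partners, 8 of them shared.

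FOSL2, which encodes FRA-2, (ENSG00000075426) occupies chr2:28615315-28640184, plus strand. It had the longest median distance of the members, 530 kb for WT loops and 585 kb for STAG2-KD loops. The single shared loop ran 440 kb upstream to the bin from 28175001, in introns of BABAM2 and MRPL33. WT-only loops ran 230, 620 and 685 kb upstream, and STAG2-KD-only loops ran 585, 600 and 670 kb upstream and 55 kb downstream. The far upstream partners lay in the same stretch in both lists, between bins at 27930001 and 28030001, but in different bins. Each WT-only partner there lay 15 or 20 kb from a STAG2-KD partner.

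Most FOSL2 partners were themselves sparse anchors. Of the 3 WT-only partner bins, 2 were not anchors in STAG2-KD, and 0 of the 4 STAG2-KD-only partner bins were anchors in WT. The shared partner in BABAM2 was an exception, with 1 loop in WT, the one to FOSL2, and 6 in STAG2-KD. Of the 8 partners of FOSL2, 1 held a protein-coding start, that of MRPL33, a mitochondrial ribosome gene.

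ATF3 and BATF3 are neighbours on chromosome 1. ATF3 encodes a stress-induced partner of JUN and lies on the plus strand from 212738676 to 212794119 (ENSG00000162772), with starts in 3 bins. Its only loop was WT-only and joined the bin of the canonical start, from 212780001, to a bin 140 kb upstream with a start of LINC02771. A further WT-only loop joined that partner bin to the bin beside the upstream ATF3 start. In STAG2-KD the partner bin still carried 3 loops, as in WT, but none to ATF3. BATF3, which encodes a small AP-1 protein without an activation domain, lies on the minus strand from 212859759 to 212873182 (ENSG00000123685). Its start bins carried 0 loops, and the nearest anchor was 80 kb away in WT and 20 kb away in STAG2-KD.

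MAFF encodes a small MAF protein, which lacks an activation domain and pairs with CNC factors such as NFE2L2 and BACH1. The gene (ENSG00000185022) occupies chr22:38596774-38612514, plus strand. The 3 shared loops ran upstream into the neighbouring phospholipase gene PLA2G6 and into BAIAP2L2, at 25, 85 and 100 kb. The partner 25 kb away, in an intron of PLA2G6 in the bin from 38570001, was the busiest of all partners of the members, with 22 loops in each list.

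MAFF had 5 STAG2-KD-only loops, the most of any member, and 2 WT-only loops. Of the STAG2-KD-only loops, 3 ran downstream, 70 kb to TMEM184B, 115 kb to CSNK1E, a casein kinase gene, and 130 kb to a bin in TPTEP2-CSNK1E that was no anchor in WT. The others ran 55 and 70 kb upstream into PLA2G6. The WT-only loops were longer, 185 kb upstream to an intron of POLR2F and 190 kb downstream. The WT list joined MAFF partners to each other by 13 loops and the STAG2-KD list by 20, with 10 in common. These partners were pooled too, 5 of them from STAG2-KD-only loops and 2 from WT-only loops. This difference therefore also follows in part from the choice of bins, and no such count over all genes was made. The bin of another MAFF start, from 38605001, carried 0 loops, and the bin to its right carried 1 in WT and 4 in STAG2-KD.

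Across the members, most private partners were anchors in both lists. Of the WT-only loops, 12 of 16 ended at a bin that was an anchor in STAG2-KD (75%, 47.6 to 92.7), beside 62.8% over all WT-only loop ends at a protein-coding start. Of the STAG2-KD-only loops, 12 of 19 ended at a bin that was an anchor in WT (63.2%, 38.4 to 83.7), beside 63.4%. In part the private loops of a gene lay close to a loop of the same gene in the other list. For 6 of the 14 WT-only loops of genes with loops in both lists, a STAG2-KD partner of the same gene lay within 20 kb. For 5 of 19 STAG2-KD-only loops a WT partner did. These nearby partners could be shared or private, and the same share over all genes was not computed. The lists hold no values for loops short of the caller's limit.

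A transcript start of any gene lay in 16 of 30 partner anchors in WT (53.3%, 34.3 to 71.7) and in 21 of 33 in STAG2-KD (63.6%, 45.1 to 79.6). For all loop ends at a protein-coding start the shares were 58.0% and 57.2%. Partners of FOSL1 and JUNB were promoters throughout, while most partners of FOSL2, MAFF and JUN held none. The partner lay upstream of the member in 70.0% of WT loops (50.6 to 85.3) and 60.6% of STAG2-KD loops (42.1 to 77.1). The upstream share over all genes was not computed, so nothing particular to the members can be read from it.

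The 7 shared partners without a transcript start are the candidate distal elements that both lists joined to an AP-1 gene. Each held at least 1 match to TGANTCA, which is looser than the AP-1 consensus TGA(C/G)TCA. The first match of each bin is shown on the plus strand of hg19 with the 7-base match in capitals. In the MAFF partner at 85 kb the only match was TGAATCA, outside that consensus. Matches to TGANTCA were common, since 80.6% of the 30601 anchors of both lists held one, and 36 of the 49 partner bins of the members did (73.5%). A match is not a bound site.
JUN, 55 kb, chr1:59190216-59190276: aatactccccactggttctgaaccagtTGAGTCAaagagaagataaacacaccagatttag
JUN, 25 kb, chr1:59221158-59221218: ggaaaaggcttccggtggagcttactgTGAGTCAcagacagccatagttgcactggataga
JUND, 20 kb, chr19:18412007-18412067: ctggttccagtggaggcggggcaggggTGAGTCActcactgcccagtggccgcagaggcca
FOSL2, 440 kb, chr2:28177660-28177720: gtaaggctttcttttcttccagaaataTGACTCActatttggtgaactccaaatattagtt
MAFF, 100 kb, chr22:38495634-38495694: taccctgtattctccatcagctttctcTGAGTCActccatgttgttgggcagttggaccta
MAFF, 85 kb, chr22:38514271-38514331: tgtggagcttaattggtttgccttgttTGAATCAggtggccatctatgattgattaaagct
MAFF, 25 kb, chr22:38571832-38571892: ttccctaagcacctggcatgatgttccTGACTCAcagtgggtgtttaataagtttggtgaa

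The CRE site TGACGTCA was rare in the anchors and less rare at the members' own starts. It was in 4 of the 14 start bins, those of JUND, FOSB, MAFF and the ATF3 bin from 212785001, against 3.53% of bins with a protein-coding start. Of the 49 partner bins 2 held it, against 3.24% of all anchors. MboI, the enzyme that cut the chromatin, recognises GATC, and this word occurred between 7 and 20 times in the start bins of the members. The FOS bin held 10 and the ATF3 bin with a loop held 7, beside 8 to 21 for the middle 90% of anchors. Whether the number of cut sites bears on these loop numbers was not tested.

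Genes around AP-1 were counted in the same way. Of 21 other basic leucine zipper genes, 13 had a loop in WT and 11 in STAG2-KD, with 48 and 53 loops in all and a median of 2 and 1 per gene, where 39.1% and 36.8% of all genes had a loop. Among the 9 with 4 or more loops over both lists, 4 had at least 1.5 times as many in STAG2-KD and 2 in WT, beside 23.1% and 29.2% of all genes with so many loops. With 9 genes and 1 list per group, nothing particular to the group can be read from these counts. DDIT3, the gene of the stress factor CHOP, had 3 loops in WT and 9 in STAG2-KD. NFE2L2, the antioxidant regulator NRF2, had 5 and 8, CEBPB had 2 and 4, and MAFK had 2 and 3. BACH1, a repressor that competes with NFE2L2 for small MAF partners, had 6 and 3, and CREM had 3 and 2. JDP2 and BATF, which follow FOS on chromosome 14, had 0 loops in both lists.

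Of 13 kinase genes of the JNK and p38 cascade, 7 had a loop in WT and 6 in STAG2-KD, and the JNK genes MAPK8, MAPK9 and MAPK10 had 0 in both. MAPK14, the gene of p38 alpha, had 3 loops in WT and 1 in STAG2-KD, and MAPK11 had 2 and 3. Of the 13 kinase genes, 3 had 4 or more loops over both lists. With at least 1.5 times as many, 1 was higher in WT and 1 in STAG2-KD. Of 12 AP-1 target genes, 5 had a loop in each list. The share of all genes with a loop was 39.1% in WT and 36.8% in STAG2-KD, and the count for the targets was near it. CCND1, the cyclin D1 gene, had 5 loops in WT and 8 in STAG2-KD, and IL6 had 1 and 3. Of the 12 targets, 3 had 4 or more loops over both lists. By the same limit 2 were higher in STAG2-KD and 0 in WT. Over all genes with so many loops, 23.1% were higher in STAG2-KD and 29.2% in WT. With 3 genes in each list, nothing particular to kinases or targets can be read from this. CD44, an adhesion receptor gene, had the most, 20 and 21, of which 7 were shared. No gene of these lists was joined to a member by a loop.

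**Figure D4:**
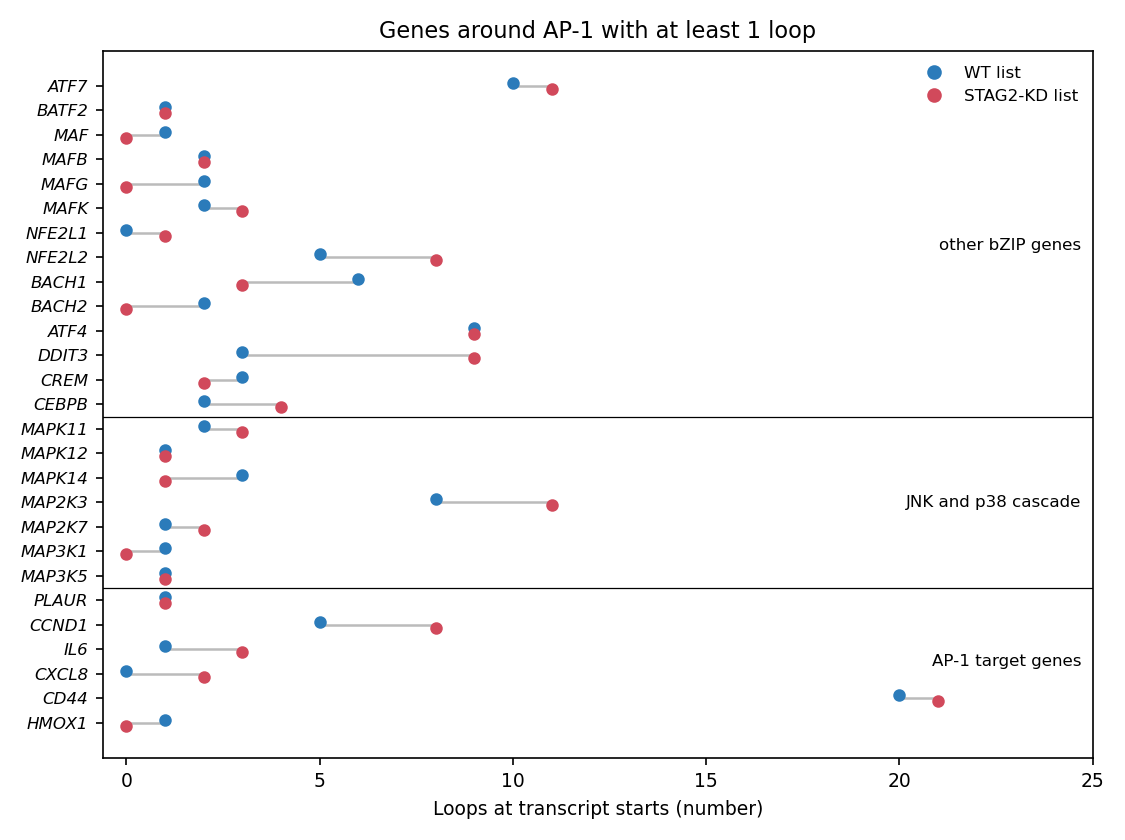
Points give the number of loops at the transcript starts of each gene in the WT list (blue) and the STAG2-KD list (red), for the other basic leucine zipper genes, the kinases of the JNK and p38 cascade and the AP-1 target genes with at least 1 loop. DDIT3 has the widest gap, 3 against 9, and CD44 the most loops, 20 and 21.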

How the data were processed

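H3K27ac HiChIP loop lists of M14 cells were analysed, 1 for the WT group and 1 for the STAG2-KD group, with groups taken from the sample titles. According to the study's methods, the authors mapped reads to hg19 through HiC-Pro and called peaks (hichip-peaks) and loops (FitHiChIP); tool versions, the limit applied to the deposited lists and any merging of replicates are not given in the sources used here. The deposited columns hold positions only (a chromosome, where the left anchor begins and where the right anchor ends), with no other measurement. The differential loops of the study rest on read support and were not rebuilt.

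Anchors were read as 5 kb bins and printed counted from 1. Starts came from GENCODE release 44 lifted to GRCh37. Shared loops had equal bins at both anchors. Upstream and downstream follow the strand of the member gene. Python 3.11.15 with scipy 1.17.1 gave exact Clopper-Pearson intervals, and the functions were tested on simulated data. All 10 members, protein-coding partners, all cell type markers, and genes of the other 3 lists that differed at least 1.5-fold with 4 or more loops are named. BATF, CD44, JDP2 and the JNK genes, genes that only contain or adjoin a partner, and noncoding partners were added after their values were seen. The members and gene lists were chosen with earlier results of these data known. Alternatives were tolerances of 1 and 2 bins, other definitions of a start, a 1 Mb limit, scaling to list size and leaving out each gene in turn. A further one kept the first 50% of the lines of each chromosome, in file order.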

Additional observations from a re-analysis of the deposited data

How the results depend on the processing

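No paired analysis was possible because a single loop list stood for each group, and leaving out each replicate was not run for that reason. Alternative values were set against the 95% interval of the main value or, for numbers of loops and genes, 1.5 times it either way. For median distances that interval came from ordered values, 60 to 185 kb in WT and 60 to 120 kb in STAG2-KD. Over 11 comparisons, 144 of 147 values lay within these limits. One exception was the first 50% of the lines of each chromosome, which left 17 WT loops at the members against 25 STAG2-KD loops. The others came with starts up to 5 kb outside the anchor. There 76.9% of WT and 82.9% of STAG2-KD partners held a start, because more starts qualify. The 1 Mb limit could change nothing, since the longest loop spanned 970 kb. Protein-coding transcripts alone gave the main value in every comparison. Leaving out 1 gene removes few loops beside limits this wide, so the count within limits is no measure of robustness. With 1 gene left out at a time, the shared share of WT loops ran from 41.7% to 50% and the STAG2-KD-only share of private loops from 50% to 58.1%. A tolerance of 2 bins gave 56.7% shared WT loops and 48.5% shared STAG2-KD loops. With starts up to 5 kb outside the anchor, FOS had 5 loops in WT and 3 in STAG2-KD, and MAFF had 6 and 12. Single members were compared only under scaling to list size, protein-coding transcripts alone and starts up to 5 kb outside the anchor. No member's difference went from one direction to the other there, while FOS, equal at 0, turned higher in WT with the last. The other alternatives were not run for single members. JUND, equal by number, was higher in STAG2-KD by 0.143 after scaling to a common list size. The main limits are the single list per group, the unknown depth and the edges of the 5 kb bins.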
